A study of Mus musculus with 9 samples.

Results

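*Grem1* and 8 genes that lie near it on mouse chromosome 2 were followed through the cell types of embryonic forelimb buds. The 9 members, *Katnbl1*, *Emc7*, *Aven*, *Ryr3*, *Fmn1*, *Grem1*, *Scg5*, *Arhgap11a* and *Aqr* in their order along the chromosome, are 9 of the 32289 features measured. They were chosen by symbol as *Grem1* and genes of its chromosomal neighbourhood, while the cells in which they were read were selected on the UMIs (unique molecular identifiers, 1 per captured transcript) of marker genes. None of the 9 members is in a marker list as used here, since *Grem1* and *Fmn1* were taken out of the study's class lists.

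Single-cell RNA sequencing had been done on pairs of forelimb buds of mouse embryos at E10.75 (37 to 39 somites) in a Swiss Albino background, with 3 libraries each of wild-type (Wt), EC1CRM8Δ/Δ (*E1C8*Δ/Δ) and EC1CRM5Δ/Δ (*E1C5*Δ/Δ) embryos. Both mutants are homozygous for an allele that lacks the EC1 enhancers of the *Grem1* landscape, together with a second cis-regulatory module in cis, CRM8 in one and CRM5 in the other. The deletions are in the germ line, so every cell of the embryo carries them, and no group lacks EC1 alone. The comparison of the genotypes asks how the loss of these regulatory elements changes *Grem1* and the genes that share its surroundings.

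GREM1 is a secreted protein that binds and blocks bone morphogenetic proteins (BMPs). In the limb bud, mesenchymal *Grem1* keeps BMP activity low enough for a feedback loop between SHH from the posterior mesenchyme and FGFs from the apical ectodermal ridge to run, which drives outgrowth and the patterning of digits. Its expression is controlled by a large set of enhancers, many of them within and beyond the neighbouring gene *Fmn1*, so that *Grem1* is a textbook case of a gene whose regulatory landscape reaches across other transcription units.

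Libraries held 26620760 to 500559729 UMIs, and 604 to 9917 cells each passed the filters (52432 in all). Cells were placed by the number of marker genes with a UMI, which gave 508 to 8386 mesenchymal cells per library (42949 in all) with a median of 17220 to 48674 UMIs per cell. The smallest libraries were Wt replicate 3 (799 mesenchymal cells) and *E1C8*Δ/Δ replicate 1 (508). Among the cells kept, pairs of libraries shared 0 to 28 barcodes, at most 0.497% of the smaller library in any pair. *Xist* and Y-linked UMIs placed all 3 Wt libraries as male, and of the mutants only *E1C8*Δ/Δ replicate 3 and *E1C5*Δ/Δ replicate 2, so that sex moved in part with genotype. Where nothing says that libraries came from separate litters, p-values measure the spread between these libraries, which may in part be technical.

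*Grem1* occupies chr2:113746164-113758646 on the minus strand (mm10, 12.5 kb). *Fmn1* (chr2:113327736-113716767, plus strand) encodes formin-1, an actin nucleator, and ends 29.4 kb from *Grem1*. *Scg5* (chr2:113776362-113829121, minus strand) encodes the neuroendocrine protein 7B2, a chaperone of prohormone convertase 2, and lies on the other side of *Grem1*, with its 3′ end 17.7 kb away. All 3 are protein-coding. The results turn on *Grem1* and on the 2 members called lower in both mutants, *Fmn1* and *Scg5*, so the 150 bases just upstream of their starts, as RefSeq gives them (GRCm38.p6, 5′ to 3′ on the strand of each gene) are shown here, for *Grem1* at chr2:113758649-113758798, for *Fmn1* at chr2:113327586-113327735 and for *Scg5* at chr2:113829122-113829271. Capitals mark every match, on either strand, to the CCAAT box (letters CCAAT). They also mark matches to the GC box, read as GGGCGG, and would mark TATAAA. A match on the opposite strand appears as its reverse complement.
Grem1: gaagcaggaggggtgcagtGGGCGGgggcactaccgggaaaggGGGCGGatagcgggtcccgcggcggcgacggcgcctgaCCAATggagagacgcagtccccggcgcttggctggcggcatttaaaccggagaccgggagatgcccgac
Fmn1: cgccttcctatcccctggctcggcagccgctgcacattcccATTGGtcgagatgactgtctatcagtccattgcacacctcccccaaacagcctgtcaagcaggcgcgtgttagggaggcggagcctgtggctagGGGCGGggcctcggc
Scg5: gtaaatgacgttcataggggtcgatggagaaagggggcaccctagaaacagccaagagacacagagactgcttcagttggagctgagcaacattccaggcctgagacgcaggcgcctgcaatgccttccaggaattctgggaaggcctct
The *Grem1* window had a GC content of 70.7% and 17 CpG dinucleotides, with 2 GC boxes and 1 CCAAT box. The *Fmn1* window had 64.0% GC, 9 CpG dinucleotides and 1 match to each of these motifs, while the *Scg5* window had 54.7% GC, 4 CpG dinucleotides and no match. Among 32851 RefSeq promoters searched over the same length, 24.5% held the CCAAT motif, 28.6% the GC box GGGCGG and 7.57% the TATAAA motif, and the median GC content was 54.0%. Sequence was matched for 6 of the 9 members, and a match describes letters only.

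In mesenchymal cells, *Grem1*, *Fmn1* and *Scg5* were lower in *E1C8*Δ/Δ, and *Fmn1* and *Scg5* were lower in *E1C5*Δ/Δ, than in Wt forelimb buds. *Aqr*, a gene 343 kb away from *Grem1*, was lower in *E1C8*Δ/Δ but not called in *E1C5*Δ/Δ. *Arhgap11a*, the gene next to *Scg5*, differed between the mutants but passed the test in neither against Wt, and *Ryr3*, *Aven*, *Emc7* and *Katnbl1* passed it in no comparison. Levels are given as normalized CPM, that is UMIs of the gene per 1000000 UMIs of all mesenchymal cells of a library, after TMM scaling. Such a level moves with the mix of mesenchymal cells as well as with the level per cell. With a quasi-likelihood test in edgeR and Benjamini-Hochberg adjustment over the 16849 genes tested, 4 of the 9 members were called lower and none higher in *E1C8*Δ/Δ against Wt, where 5.62% of all genes were called lower and 3.56% higher. In *E1C5*Δ/Δ against Wt 2 members were called lower and none higher, where 1.12% and 0.356% of all genes were. Between the mutants, 3 members were lower in *E1C8*Δ/Δ than in *E1C5*Δ/Δ and none higher, against 5.39% and 4.24% of all genes. All 9 members passed the filter on low counts. The 2 comparisons with Wt share the Wt libraries.

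**Figure D1:**
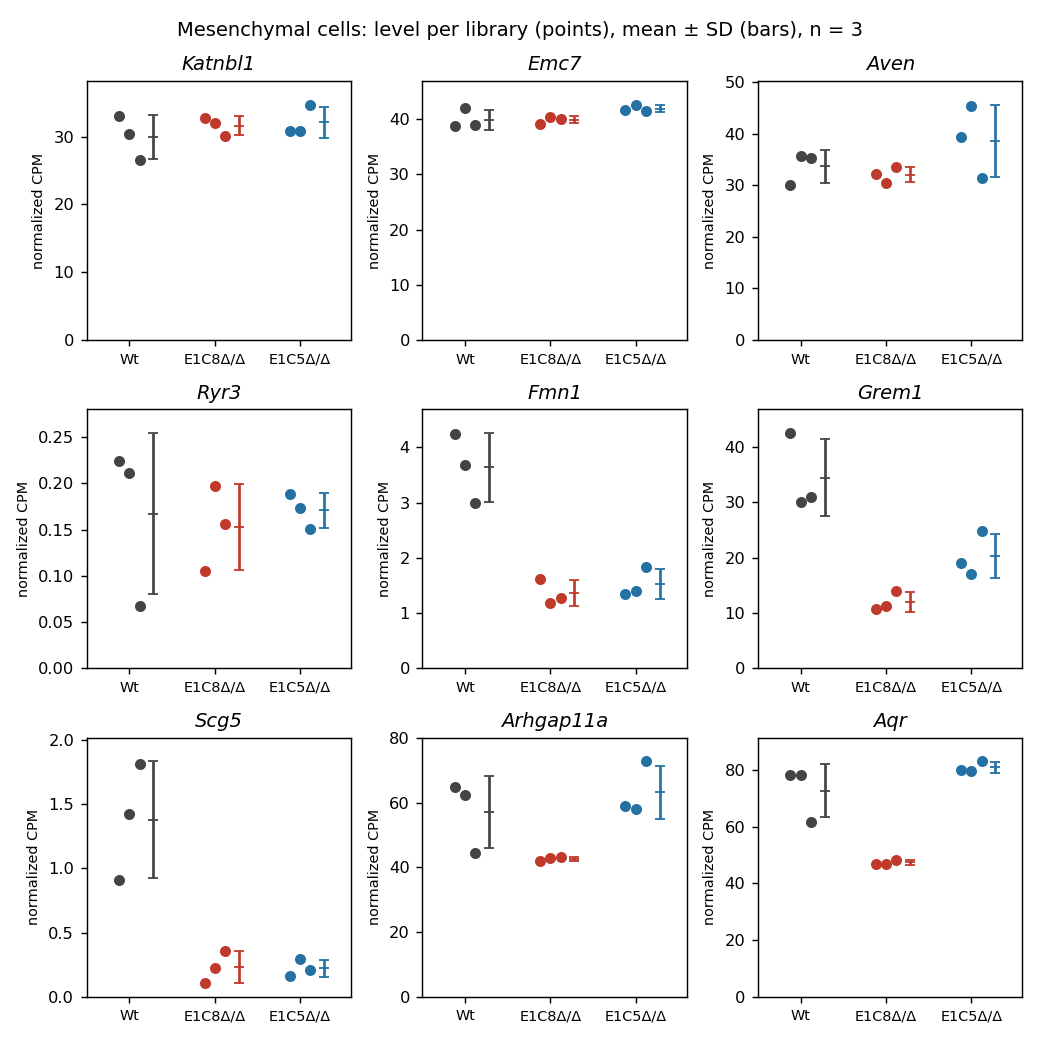
Normalized CPM of the 9 members in mesenchymal cells, 1 panel per gene in chromosomal order, with 1 point per library and bars for the mean ± SD of 3 libraries per genotype (y axes start at 0 and differ between panels). *Grem1*, *Fmn1* and *Scg5* lie below all Wt libraries in both mutants, *Arhgap11a* and *Aqr* do so in *E1C8*Δ/Δ, and each mutant overlaps Wt for *Emc7*, *Katnbl1*, *Aven* and *Ryr3*. Of all genes tested, 16.8% have every *E1C8*Δ/Δ library and 9.58% every *E1C5*Δ/Δ library below all Wt libraries.

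*Grem1* stood at 42.5, 29.9 and 30.8 normalized CPM in Wt replicates 1, 2 and 3, at 10.6, 11.2 and 14 in the *E1C8*Δ/Δ libraries and at 19.0, 17.0 and 24.8 in the *E1C5*Δ/Δ libraries. The 3 genotypes did not overlap, and the *E1C5*Δ/Δ libraries lay between the other 2 groups. Of all genes tested, 16.8% had every *E1C8*Δ/Δ library and 9.58% every *E1C5*Δ/Δ library below all Wt libraries. Every *E1C8*Δ/Δ library was below all *E1C5*Δ/Δ libraries for 17.6%. Against Wt, *Grem1* was 1.51 ± 0.18 lower on the log2 scale in *E1C8*Δ/Δ (SE, edgeR adjusted p = 0.00192), which leaves 35.0% of the Wt level. In *E1C5*Δ/Δ the estimate was -0.76 ± 0.17, or 59.0% of Wt, and missed the threshold (edgeR adjusted p = 0.0539). *Grem1* was lower in *E1C8*Δ/Δ than in *E1C5*Δ/Δ by 0.75 ± 0.17 on the log2 scale (edgeR adjusted p = 0.0235). Leaving out single libraries kept this difference between -0.89 and -0.58. The call was lost without *E1C8*Δ/Δ replicate 1 (-0.69, adjusted p = 0.0832), *E1C8*Δ/Δ replicate 2 (-0.69, 0.10) or *E1C5*Δ/Δ replicate 3 (-0.58, 0.0657). The *E1C5*Δ/Δ difference from Wt passed without *E1C5*Δ/Δ replicate 3 (-0.93, adjusted p = 0.0333) and stood at -0.76 with sex as a covariate (adjusted p = 0.294).

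*Fmn1* was read at 4.24, 3.68 and 2.99 normalized CPM in the Wt libraries, at 1.63, 1.19 and 1.27 in *E1C8*Δ/Δ and at 1.35, 1.40 and 1.84 in *E1C5*Δ/Δ. Every mutant library was below every Wt library, and the mutants overlapped each other. Taken alone, *E1C8*Δ/Δ lay below all Wt libraries for 16.8% and *E1C5*Δ/Δ for 9.58% of all genes, and genes with both at once were not counted. The changes were -1.47 ± 0.20 (edgeR adjusted p = 0.00363) and -1.25 ± 0.19 (adjusted p = 0.0106) on the log2 scale, and the mutants did not differ detectably (-0.23 ± 0.20, adjusted p = 0.509, with bounds of -0.62 and 0.17 at 2 SE on either side). In *E1C5*Δ/Δ the call was lost at a similar size with sex as a covariate (-1.35, adjusted p = 0.0860) and without *E1C5*Δ/Δ replicate 1 (-1.16, 0.0512), while the male *E1C5*Δ/Δ replicate 2 stood at 1.40, below all 3 male Wt libraries. The body of *Fmn1* overlaps 4 annotated antisense features, *Gm13963*, *Gm13966*, *Gm13964* and *4930533B01Rik*, and whether they bear on its UMIs was not tested. The positions of the deleted elements relative to the exons of *Fmn1* are not given in the sources used here, and whether missing bases lower its count directly was not tested.

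*Scg5* was sparse in the mesenchyme, with 170, 444 and 81 UMIs in the Wt libraries, 2, 39 and 68 in *E1C8*Δ/Δ and 27, 22 and 81 in *E1C5*Δ/Δ. As normalized CPM this came to 0.906, 1.42 and 1.81 in Wt, 0.105, 0.226 and 0.354 in *E1C8*Δ/Δ and 0.159, 0.294 and 0.210 in *E1C5*Δ/Δ. All 6 mutant libraries were below all Wt libraries, and as for *Fmn1* the share of all genes with both mutants below Wt was not counted. *Scg5* was lower by 2.34 ± 0.36 on the log2 scale in *E1C8*Δ/Δ (edgeR adjusted p = 0.00581) and by 2.66 ± 0.35 in *E1C5*Δ/Δ (adjusted p = 0.00591), which leaves 19.7% and 15.8% of the Wt level. No difference between the mutants was detected (0.32 ± 0.37, adjusted p = 0.633). With sex as a covariate the estimates were -1.98 in *E1C8*Δ/Δ, still called (adjusted p = 0.0484), and -2.14 in *E1C5*Δ/Δ, no longer called (0.0795). The 2 male mutant libraries, at 0.354 and 0.294, were each the highest of their genotype and below the lowest Wt library. With 1 male library per mutant and no female Wt library, the part of sex in the *Scg5*, *Fmn1* and *Aqr* differences was not tested further.

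Beyond *Scg5*, the next members were *Arhgap11a* and *Aqr*. *Arhgap11a*, a gene expressed mostly in dividing cells, was at 64.9, 62.4 and 44.5 normalized CPM in Wt, 41.9, 42.8 and 43.2 in *E1C8*Δ/Δ and 59.1, 58.1 and 72.7 in *E1C5*Δ/Δ. The *E1C8*Δ/Δ libraries lay below the others, with Wt replicate 3 close to them. Against Wt the estimates were -0.43 ± 0.14 in *E1C8*Δ/Δ (edgeR adjusted p = 0.0771) and 0.14 ± 0.14 in *E1C5*Δ/Δ (adjusted p = 0.695), and *Arhgap11a* was lower in *E1C8*Δ/Δ than in *E1C5*Δ/Δ by 0.57 ± 0.14 (adjusted p = 0.0272). That call was lost at nearly the same size without any 1 of the *E1C8*Δ/Δ libraries (-0.58 to -0.56, adjusted p = 0.0767 to 0.0941), with a replicate block (-0.57, 0.0684) and without *E1C5*Δ/Δ replicate 3 (-0.46, 0.0755). The difference of *E1C8*Δ/Δ from Wt passed without Wt replicate 3 (-0.58, edgeR adjusted p = 0.0126), without *E1C5*Δ/Δ replicate 3 (-0.43, 0.0497) and with DESeq2 (-0.43, 0.0249).

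*Aqr* encodes aquarius, an RNA helicase of the spliceosome. It stood at 78.3, 78.3 and 61.8 normalized CPM in Wt, at 47.1, 46.9 and 48.3 in *E1C8*Δ/Δ and at 80.1, 79.8 and 83.1 in *E1C5*Δ/Δ. The *E1C8*Δ/Δ libraries lay close together and all below Wt, while those of *E1C5*Δ/Δ were all above the Wt range. Of all genes tested, 7.95% had every *E1C5*Δ/Δ library above all Wt libraries. *Aqr* was lower in *E1C8*Δ/Δ by 0.62 ± 0.10 on the log2 scale, at 65.1% of Wt (edgeR adjusted p = 0.00593), and lower than in *E1C5*Δ/Δ by 0.77 ± 0.10 (adjusted p = 0.00241). In *E1C5*Δ/Δ against Wt the estimate was 0.15 ± 0.10 (adjusted p = 0.527). With sex as a covariate the difference of *E1C8*Δ/Δ from Wt kept its size and just missed the threshold (-0.62, adjusted p = 0.0538). The male *E1C8*Δ/Δ library stood at 48.3, below the 3 male Wt libraries.

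The 4 members on the far side of *Fmn1* showed no call. *Emc7*, a subunit of the endoplasmic reticulum membrane protein complex, ranged over all 9 libraries from 38.8 to 42.7 normalized CPM, with an *E1C8*Δ/Δ estimate of 0.00 ± 0.07 and bounds of -0.14 and 0.14 at 2 SE. *Katnbl1*, a regulator of the microtubule-severing enzyme katanin, ranged from 26.5 to 34.8, and *Aven*, an inhibitor of apoptosis, from 30.01 to 45.3, and for both the groups overlapped. Their *E1C8*Δ/Δ estimates were 0.07 ± 0.10 and -0.07 ± 0.13 and those of *E1C5*Δ/Δ 0.10 ± 0.10 and 0.20 ± 0.12. *Ryr3*, a calcium release channel of the endoplasmic reticulum, gave 2 to 66 UMIs per library and an *E1C8*Δ/Δ estimate of -0.16 ± 0.36, with bounds of -0.88 and 0.57 at 2 SE, so a change within these bounds was not detectable at this depth. The 3′ end of *Aven* overlaps that of *Ryr3* on the opposite strand.

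To set the members among their surroundings, every annotated feature within 2 Mb of *Grem1*, the 8 other members included, was read from the same fit. Of 53 such features 19 had enough counts for the test, and 4 were called in *E1C8*Δ/Δ, 2 in *E1C5*Δ/Δ and 3 between the mutants, all lower in the first genotype named. That is 21.1%, 10.5% and 15.8% of those tested, against 9.18%, 1.48% and 9.64% of all genes. All but 1 of the called features in each of the comparisons of *E1C8*Δ/Δ, and both in *E1C5*Δ/Δ against Wt, are members described above. Medians of the log2 changes were 0.00, 0.10 and -0.07 within 2 Mb and -0.52, 0.00 and -0.32 among the 8 features tested within 1 Mb, with 0.00 over all genes in each comparison. The 19 features share the 9 libraries and were chosen with results in view, and their share carries no test of its own.

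**Figure D2:**
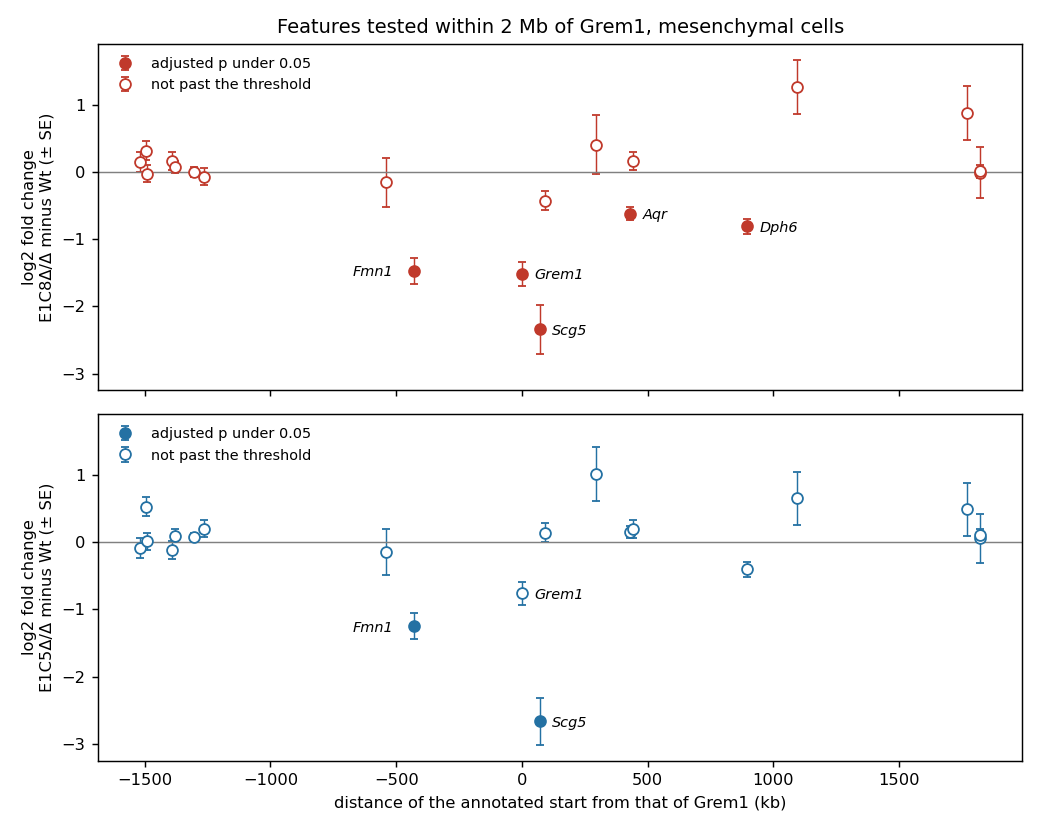
Log2 fold change ± SE in mesenchymal cells of each tested feature within 2 Mb of *Grem1* against the distance in kb of its annotated start from that of *Grem1*, for *E1C8*Δ/Δ (upper) and *E1C5*Δ/Δ (lower) minus Wt, 3 libraries per genotype. Filled points have an adjusted p under 0.05. *Fmn1* and *Scg5* are low in both panels, *Grem1* is filled in the upper one alone, and *Aqr* and *Dph6* are low in *E1C8*Δ/Δ.

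The only feature within 2 Mb outside the members that passed in any comparison was *Dph6*, an enzyme of diphthamide synthesis that starts 896 kb from the *Grem1* start (chr2:114516416-114654964, minus strand), beyond *Aqr*. It stood at 38.0, 43.2 and 35.3 normalized CPM in Wt, at 19.7, 21.1 and 25.5 in *E1C8*Δ/Δ and at 30.7, 27.5 and 29.97 in *E1C5*Δ/Δ. The 3 groups did not overlap. Over all genes, groups separated in this direction for 16.8% (*E1C8*Δ/Δ below Wt), 9.58% (*E1C5*Δ/Δ below Wt) and 17.6% (*E1C8*Δ/Δ below *E1C5*Δ/Δ). *Dph6* was lower in *E1C8*Δ/Δ by 0.81 ± 0.11 on the log2 scale (edgeR adjusted p = 0.00430) and lower than in *E1C5*Δ/Δ by 0.40 ± 0.11 (adjusted p = 0.0441), with -0.40 ± 0.11 in *E1C5*Δ/Δ against Wt (adjusted p = 0.109). The first call held in 21 of 21 alternatives. The call between the mutants held in 11 of 21 and was lost with a replicate block (-0.41, edgeR adjusted p = 0.0918), with sex as a covariate (-0.41, 0.0569) and in 5 of the 9 fits without a single library (-0.45 to -0.34, 0.0681 to 0.169), namely those without *E1C8*Δ/Δ replicate 1 or 2 or any *E1C5*Δ/Δ replicate.

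Since depth differed between libraries, mesenchymal cells were thinned to 10000 UMIs each and the share with a *Grem1* UMI was counted. The mean share in Wt was 14.9% in thinned cells and 29.7% without thinning, so many cells with *Grem1* transcripts go uncounted at this depth. The share and the UMIs per counted cell therefore cannot tell fewer expressing cells from fewer transcripts per cell. The share was 18.1%, 15.3% and 11.3% in Wt replicates 1 to 3, 6.14%, 7.94% and 8.89% in *E1C8*Δ/Δ and 11.4%, 10.4% and 16.9% in *E1C5*Δ/Δ. The *E1C8*Δ/Δ libraries lay below all others, and those of *E1C5*Δ/Δ overlapped Wt. Against Wt the mean share was 7.23 percentage points lower in *E1C8*Δ/Δ (two-sided exact permutation p = 0.1, the smallest that 3 against 3 libraries can give) and 1.98 points lower in *E1C5*Δ/Δ (exact permutation p = 0.6). For all 6 mutant libraries against the 3 Wt libraries the difference was -4.61 points (exact permutation p = 0.131).

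Cells that had *Grem1* UMIs held fewer of them in most mutant libraries. The mean number per such cell was 2.14, 1.76 and 2.13 in Wt, 2.10, 1.33 and 1.39 in *E1C8*Δ/Δ and 1.29, 1.38 and 1.42 in *E1C5*Δ/Δ. Of the mutants only *E1C8*Δ/Δ replicate 1, with 29 such cells, reached the Wt range. Over the 6 mutant libraries the mean was 1.48 against 2.01 in Wt (two-sided exact permutation p = 0.0238), and the share of cells with at least 2 UMIs was 2.96% against 6.52% (exact permutation p = 0.0119, the smallest possible). In erythroid cells, which should lack *Grem1*, 0.312% to 3.98% of thinned cells of the 7 libraries with at least 20 of them had a *Grem1* UMI (median depth before thinning 32401 UMIs, against 29844 in mesenchymal cells), below the mesenchymal share of each of those libraries. Without thinning, 25.5% to 32.3% of Wt, 12.01% to 16.9% of *E1C8*Δ/Δ and 26.6% to 37.8% of *E1C5*Δ/Δ mesenchymal cells had one.

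**Figure D3:**
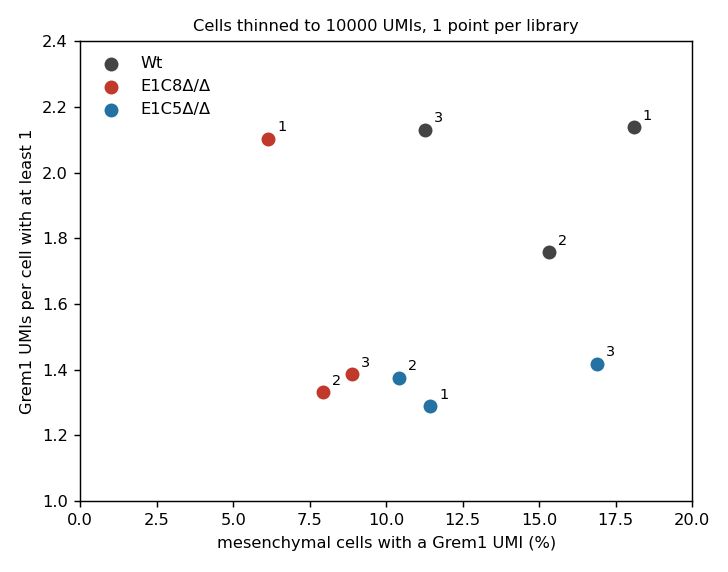
Percent of mesenchymal cells with a *Grem1* UMI (x axis) and mean number of *Grem1* UMIs in those cells (y axis, from 1), in cells thinned to 10000 UMIs, 1 point per library with its replicate number. The *E1C8*Δ/Δ libraries are at the left, at 6.14% to 8.89%, and the *E1C5*Δ/Δ libraries overlap Wt on the x axis, at 10.4% to 16.9% against 11.3% to 18.1%, but lie below it on the y axis, at 1.29 to 1.42 UMIs.

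Mesenchymal cells were then divided into 11 classes by the highest mean score over the signature lists of the study, without *Grem1* and *Fmn1*. The study chose these lists on the same samples, and the classes (C1-like to P4-like) are ranges of a score: 12964 of 42949 cells (30.2%) had their best score within 0.2 of the next. The median score of the own list and of the closest other list was 0.93 and 0.06 (C1) in the M3-like class, 0.94 and 0.07 (P3) in the M4-like class and 1.54 and 0.57 (M4) in the P4-like class. The study names *Grem1* among the genes enriched in its clusters M3 and M4, so its high level in the classes of these names was in part set in advance. In Wt, *Grem1* was highest in the M3-like class (list genes such as *Lmx1b* and *Wnt11*), at 116, 77.4 and 116 CPM, and in the M4-like class (*Hoxd11*, *Fgf10*), at 90.9, 73.1 and 104. These ranges overlapped. The P4-like class (*Hoxa13*, *Hoxd13*) followed with 31.1 to 40.8 CPM and the M1-like class with 12.1 to 22.3, and the means of the other 7 classes were 5.55 to 11.2. The M3-, M4- and P4-like classes held 81.7% of the Wt mesenchymal *Grem1* UMIs in 34.0% of the cells, against 67.2% in 25.0% of the cells in *E1C8*Δ/Δ and 68.1% in 34.9% in *E1C5*Δ/Δ. Per library the share of UMIs was 78.2% to 83.8% in Wt, 57.5% to 83.7% in *E1C8*Δ/Δ and 63.99% to 70.5% in *E1C5*Δ/Δ, so that *E1C8*Δ/Δ overlapped Wt.

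*Grem1* was called lower than in Wt in 4 of 11 classes of *E1C8*Δ/Δ buds and 3 of 11 classes of *E1C5*Δ/Δ buds, and called higher in none. Its estimates were below 0 in 11 of 11 classes in *E1C8*Δ/Δ (-2.22 to -0.33). In *E1C5*Δ/Δ they were below 0 in 7 of 11 and ranged from -1.42 to 0.73, the highest in the C1-like class (0.73 ± 0.37, not called). In the P4-like class it read 40.8, 39.6 and 31.1 CPM in Wt, 3.81, 8.37 and 8.70 in *E1C8*Δ/Δ and 14.6, 10.6 and 15.1 in *E1C5*Δ/Δ. The log2 changes there were -2.22 ± 0.20 in *E1C8*Δ/Δ (edgeR adjusted p = 0.000111) and -1.42 ± 0.18 in *E1C5*Δ/Δ (adjusted p = 0.00155). Of the 9 genes that define the P4 list, 5 are ones that the study names as changed in these mutants, so the choice of P4-like cells is not independent of genotype. With lists that leave such genes out, an alternative added after the values had been seen, the class held 301, 188 and 806 *E1C5*Δ/Δ cells rather than 154, 106 and 404, and the changes were -1.96 ± 0.23 (edgeR adjusted p = 0.00101) and -1.11 ± 0.20 (adjusted p = 0.0188). In the M4-like class the mutants stood together, at 31.5 to 37.7 CPM in *E1C8*Δ/Δ and 29.998 to 41.7 in *E1C5*Δ/Δ, with changes of -1.35 ± 0.13 and -1.29 ± 0.13 (adjusted p = 0.000634 and 0.000624). In the M3-like class the changes were -1.25 ± 0.21 and -1.04 ± 0.20 (adjusted p = 0.00669 and 0.0188). The M1-like class was called in *E1C8*Δ/Δ (-1.30 ± 0.30, adjusted p = 0.0229, against -0.11 ± 0.28 in *E1C5*Δ/Δ). Between the mutants *Grem1* was lower in *E1C8*Δ/Δ in the M1-like class (-1.19 ± 0.30, adjusted p = 0.0302) and in the P4-like class (-0.80 ± 0.21, adjusted p = 0.0395), and no difference was detected in the M3- and M4-like classes (-0.22 ± 0.21 and -0.06 ± 0.13).

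**Figure D4:**
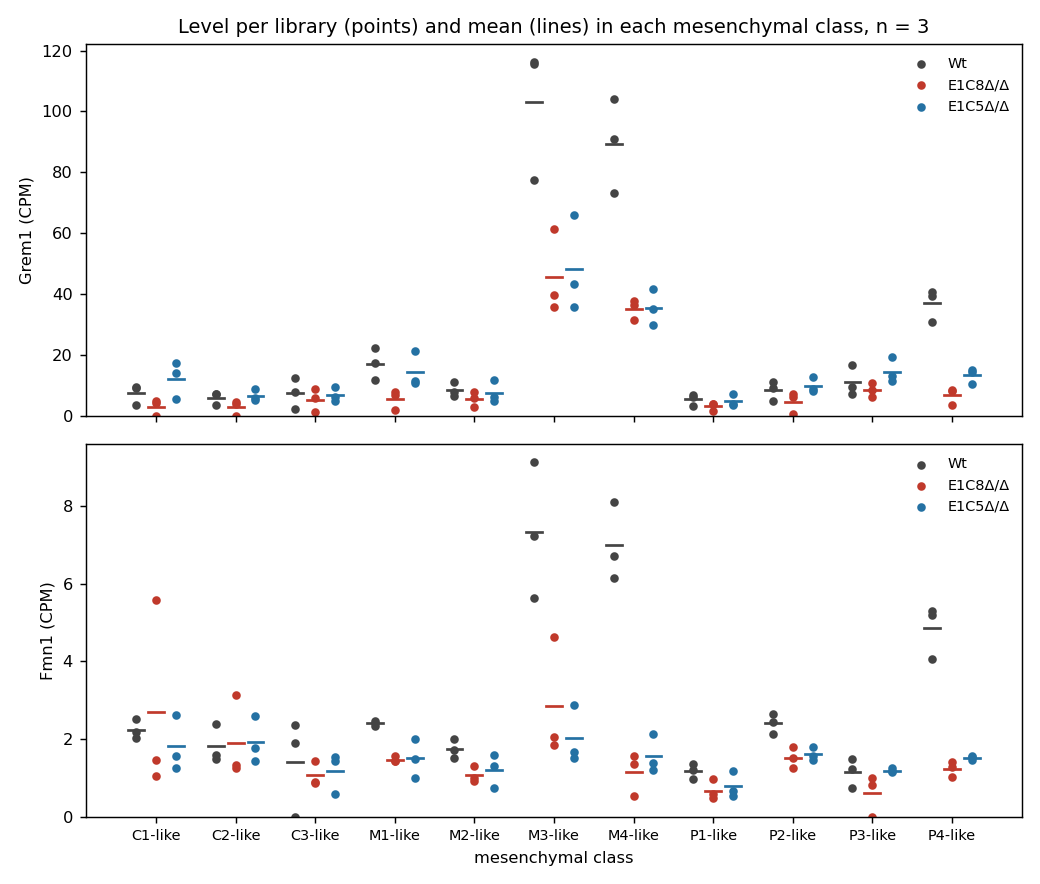
CPM of *Grem1* (upper) and *Fmn1* (lower) in each of the 11 mesenchymal classes, with 1 point per library and a line at the mean of 3 libraries per genotype. In Wt both genes are highest in the M3-, M4- and P4-like classes, and there both mutants lie below Wt for both genes.

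*Fmn1*, which the study names among the genes enriched in its cluster M3, followed the same classes. Its Wt means were 7.33 CPM in the M3-like, 6.98 in the M4-like and 4.85 in the P4-like class and 1.15 to 2.4 in the other 8, and in these 3 classes it was called lower in both mutants. The changes in the M3-, M4- and P4-like classes were -1.78 ± 0.30, -2.34 ± 0.27 and -1.94 ± 0.29 in *E1C8*Δ/Δ and -1.81 ± 0.26, -2.12 ± 0.23 and -1.63 ± 0.26 in *E1C5*Δ/Δ. In the M4-like class the Wt libraries read 8.10, 6.72 and 6.13 CPM and the 6 mutant libraries 0.531 to 2.13. *Scg5* had enough counts in 5 classes and was called lower in the M1- and M3-like classes in *E1C8*Δ/Δ and in the M3-like class in *E1C5*Δ/Δ.

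Whether a class changed beyond the rest of the mesenchyme was tested on the log2 ratio of its level to that in all other mesenchymal cells, with 1 CPM added to each. For *Grem1* no class passed over the 11 classes: the P4-like class was lower by 0.82 and the P3-like class higher by 1.20 on this scale in the mutants (each two-sided exact permutation p = 0.0119, adjusted 0.0655). This count depended on the setting, since 7 classes passed with 5 CPM added and 8 without *E1C8*Δ/Δ replicate 1, which had 39 P4-like cells. The P4-like difference was then -0.63 and -0.67 (exact permutation, adjusted p = 0.0327 and 0.0393), and -0.56 (adjusted p = 0.183) with lists free of the genes named as changed. The P3 list also holds such genes, 6 of its 11, and the P3-like difference was 1.15 (exact permutation, adjusted p = 0.131) without them. For *Fmn1*, in a test added after these values had been seen, 8 of 11 classes passed, 1 of them lower (M4-like) and 7 higher relative to the other cells. With 1 CPM added to levels near 1 CPM, such ratios are drawn toward 0 where the level of the gene is lower. For both genes the ratio of a class also rises where the level in the other cells falls further, so a higher ratio is not a higher level. In *E1C8*Δ/Δ the estimates of *Grem1* and of *Fmn1* against Wt were below 0 in 11 of 11 classes. In the M4-like class the ratio was 0.94 to 1.09 in Wt and -0.88 to 0.24 in the mutants (difference -1.04, exact permutation p = 0.0119, adjusted 0.0218), and the difference of -0.50 in the M3-like class and of -0.44 in the P4-like class did not pass (adjusted p = 0.0917 and 0.0728).

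*Aqr* showed another pattern over the cells. In *E1C8*Δ/Δ it was below Wt by 0.54 to 0.72 on the log2 scale in each of the 11 classes, with 10 called (the C1-like class had an edgeR adjusted p of 0.05004, just above the threshold), and it was called lower than in *E1C5*Δ/Δ in 11 of 11. In *E1C5*Δ/Δ against Wt no class was called, at 0.03 to 0.19. In muscle progenitors, erythroid cells, ectoderm, endothelium and myeloid cells *Aqr* was below Wt by 0.29 to 0.55 in *E1C8*Δ/Δ, with no call. The fits of these cell types called few genes of any kind, with 0% to 0.285% of all genes lower in *E1C8*Δ/Δ. The lack of a call there therefore does not limit the change to the mesenchyme. *Dph6* was called lower in *E1C8*Δ/Δ in 10 of 11 classes (-0.96 to -0.63) and in 2 in *E1C5*Δ/Δ (M2- and P1-like, -0.59 and -0.66). *Arhgap11a* was called in 2 classes in *E1C8*Δ/Δ and in 6 of 11 between the mutants, all lower in *E1C8*Δ/Δ. Of all genes tested, the share called lower in *E1C8*Δ/Δ than in Wt was 0.912%, 0.992% and 0.966% in classes C1 to C3, 3.26%, 2.58%, 4.51% and 4.27% in classes M1 to M4, and 1.21%, 1.94%, 3.06% and 5.02% in classes P1 to P4. Lower in *E1C8*Δ/Δ than in *E1C5*Δ/Δ were 1.62%, 1.41%, 2.07%, 3.61%, 2.94%, 3.73%, 3.73%, 1.37%, 1.62%, 3.49% and 3.38% in the same order, and lower in *E1C5*Δ/Δ than in Wt were 0.228% in the M2-like, 1.38% in the M3-like, 0.588% in the M4-like, 0.249% in the P1-like and 0.583% in the P4-like class.

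**Figure D5:**
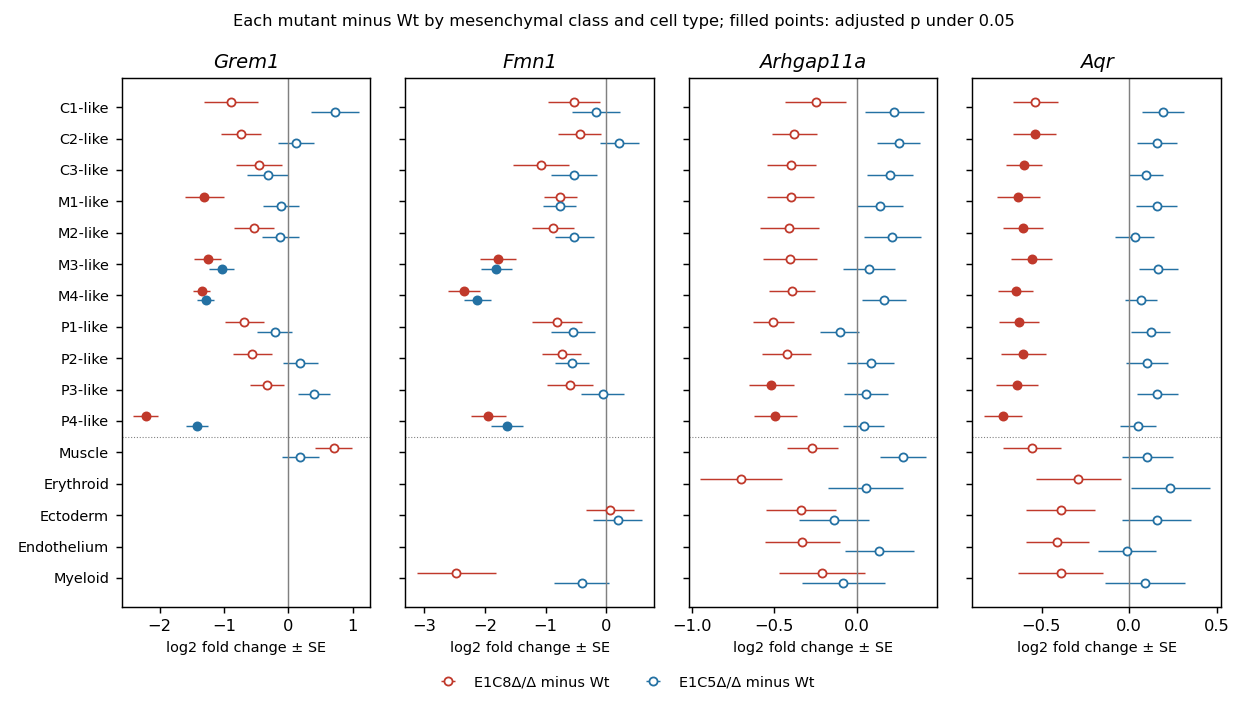
Log2 fold change ± SE of *Grem1*, *Fmn1*, *Arhgap11a* and *Aqr* in each mutant minus Wt, by mesenchymal class (above the dotted line) and in the other cell types (below it), with filled points for an adjusted p under 0.05. *Grem1* and *Fmn1* are filled in both mutants in the M3-, M4- and P4-like classes, while *Aqr* is shifted by a like amount in every class in *E1C8*Δ/Δ and lies near 0 in *E1C5*Δ/Δ. A cell type without a point had too few counts.

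Outside the mesenchyme *Grem1* was low in Wt. Muscle progenitors read 11.6, 7.41 and 3.49 CPM, against 42.2, 28.2 and 30.7 in the mesenchyme of the same libraries, and the means of ectoderm, endothelium, erythroid and myeloid cells were 1.65 to 2.10 CPM, a level at which free RNA of broken cells cannot be told apart from expression. In the mutants the muscle progenitors did not follow the mesenchyme. They read 16.2 and 11.7 CPM in *E1C8*Δ/Δ replicates 2 and 3 (replicate 1 had 19 such cells and was not used) and 7.76, 9.02 and 11.3 in *E1C5*Δ/Δ. The fit gave 0.71 ± 0.29 for *E1C8*Δ/Δ (edgeR adjusted p = 0.275) and 0.19 ± 0.29 for *E1C5*Δ/Δ (adjusted p = 0.956), neither past the threshold.

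Relative to the mesenchyme of the same library, *Grem1* in muscle progenitors stood at 11.4% to 27.6% in Wt, 87.5% to 144% in *E1C8*Δ/Δ and 45.2% to 58.0% in *E1C5*Δ/Δ. This ratio moves with the lower mesenchymal level in the mutants and was looked at after the values had been seen, so it is given as a description. The mesenchymal genes *Pdgfra* and *Prrx1* also read higher in *E1C8*Δ/Δ than in Wt muscle progenitors, relative to the mesenchyme. *Pdgfra* stood at 1.29% to 2.49% of its mesenchymal level in Wt, 4.14% and 6.46% in *E1C8*Δ/Δ and 0.640% to 3.19% in *E1C5*Δ/Δ, and *Prrx1* at 3.66% to 10.6%, 11.6% and 14%, and 8.02% to 10.6%. *Tbx5* stood at 1.24% to 4.59% in Wt, 2.61% and 4.11% in *E1C8*Δ/Δ and 1.32% to 1.89% in *E1C5*Δ/Δ. All 3 are in the 7-gene list that defines the mesenchyme, of which a cell placed as a muscle progenitor could hold at most 4, so the gate itself bears on these shares. The part of mesenchymal RNA in the muscle values was not tested.

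*Scg5* was also present in ectoderm and muscle progenitors of Wt. Ectoderm read 10.3 and 6.04 CPM in the 2 Wt libraries with at least 20 such cells (19 and 15 UMIs), 2.48 and 3.23 in *E1C8*Δ/Δ and 2.29 and 1.63 in *E1C5*Δ/Δ (4 to 8 UMIs each). All mutant libraries were below both Wt libraries, and the estimates of -1.47 ± 0.51 and -2.04 ± 0.57 did not pass (edgeR adjusted p = 0.610 and 0.796). Of 10381 genes tested in ectoderm, 0 were called lower in either mutant than in Wt. How many ectoderm genes separate the libraries in this way was not counted, so the order of so few UMIs is a description only. *Fmn1*, in contrast, was at 9.25 and 7.65 CPM in Wt ectoderm, with estimates of 0.06 ± 0.40 in *E1C8*Δ/Δ (bounds of -0.74 and 0.86 at 2 SE) and 0.19 ± 0.40 in *E1C5*Δ/Δ (-0.62 and 1.00). The difference between the cell types was not tested.

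Likeness to *Grem1* was measured by Pearson's r of log2(CPM + 1) over the 11 classes in the 3 Wt libraries (33 points that share libraries, depth and class lists), among genes with a mean of at least 10 CPM outside the gate lists. The 10 genes most like it were *Lamb1* (r = 0.796), *Cxxc4*, *Nid1*, *Usp15*, *Sap30*, *Pak2*, *Socs2*, *Spry2*, *Map1b* and *Alg13* (r = 0.736). *Lamb1* and *Nid1* encode the basement membrane proteins laminin beta 1 and nidogen 1, and *Spry2* a feedback inhibitor of FGF signalling. *Fmn1* had r = 0.899, above all of them, but with a mean of 3.05 CPM it lay under the minimum. The study names both *Grem1* and *Fmn1* as enriched in its cluster M3, and the class lists come from these samples. A high r of *Fmn1* over these classes was therefore in part set in advance. The other 7 members had r of -0.16 to 0.32. In *E1C8*Δ/Δ against Wt mesenchyme, *Lamb1* (-0.54 ± 0.11), *Nid1* (-0.62 ± 0.17), *Pak2* (-0.40 ± 0.09) and *Map1b* (-1.01 ± 0.12) were lower (edgeR adjusted p = 0.0145, 0.0458, 0.0284 and 0.00268), and none of the 9 that could be tested was called in *E1C5*Δ/Δ. The share of all genes called lower was 5.62% in *E1C8*Δ/Δ against 1.12% in *E1C5*Δ/Δ, so that no call among 9 genes in *E1C5*Δ/Δ is near the background. These genes were picked because they follow *Grem1* over the classes, so their mesenchymal level also moves with the mix of classes. The M3-, M4- and P4-like classes made up 34.0% of Wt mesenchymal cells. Their share was 25.0% for *E1C8*Δ/Δ, where the calls fell, while *E1C5*Δ/Δ stood at 34.9%. Changes of these genes within classes are not given here, and the part of the mix was not tested.

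Of 16 genes of the feedback loop in which GREM1 acts (*Shh*, *Hand2* and SHH targets, BMP ligands and targets, *Fgf10* and FGF targets), 2 were called lower and 3 higher in *E1C8*Δ/Δ mesenchyme and none in *E1C5*Δ/Δ, against 5.62% and 3.56% of all genes in *E1C8*Δ/Δ and 1.12% and 0.356% in *E1C5*Δ/Δ. The BMP targets *Msx2* and *Id3* rose by 0.88 ± 0.15 and 0.75 ± 0.11 on the log2 scale (edgeR adjusted p = 0.00902 and 0.00454), and *Id2*, named here beyond the rule for named genes, by 0.48 ± 0.14 (adjusted p = 0.0476). *Msx2* read 25.4, 32.2 and 36.1 normalized CPM in Wt, 60.8, 60.6 and 50.7 in *E1C8*Δ/Δ and 28.1, 38.2 and 27.4 in *E1C5*Δ/Δ, so that *E1C8*Δ/Δ stood above both other groups, which overlapped. Of all genes tested, 15.7% had every *E1C8*Δ/Δ library above all Wt libraries and 17.4% above all *E1C5*Δ/Δ libraries. The FGF target *Etv5* fell by 0.71 ± 0.18 (adjusted p = 0.0330) and *Hand2*, a posterior transcription factor, by 0.36 ± 0.09 (adjusted p = 0.0345). No other FGF target of the list was called, and their estimates went both ways. Compared with *E1C5*Δ/Δ, *Msx2* and *Id3* were higher in *E1C8*Δ/Δ (adjusted p = 0.00889 and 0.00808) and *Etv5* lower (0.0431). The 16 genes had a median change of -0.32 in *E1C8*Δ/Δ, against -0.14 in *E1C5*Δ/Δ and 0.00 over all genes in both comparisons.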

How the data were processed

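Gene-by-cell matrices of 9 forelimb bud libraries were analysed, 3 per genotype, made with the 10x Chromium 3′ chemistry. The authors deposited them as raw UMI counts per feature and cell barcode, and the submitters' processing notes name Cell Ranger 6.0.1, Seurat 4.3.0.1 and the mm10 build without further steps. Cells were kept if they held over 2500 genes and under 200000 UMIs, of which under 10% mitochondrial. Mesenchymal cells had UMIs of at least 4 of 7 markers and of at most 2 of any other lineage list, and other cell types had at least 3 markers of exactly 1 list and at most 4 mesenchymal ones. Of the 7 mesenchymal markers, 2 are genes that the study names as changed in these mutants, so this gate is not fully independent of genotype. The P1 and P2 class lists hold 3 such genes each. Doublets were called but kept, and their removal was tried as an alternative.

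Counts were summed per library and cell type (at least 20 cells) and tested with the quasi-likelihood test of edgeR 4.0.16 in R 4.3.3 (TMM scaling, filterByExpr, Benjamini-Hochberg adjustment over all genes tested, threshold 0.05), with all 3 genotypes in one fit. The 1809 features on X or Y and 4 transgene features (0 UMIs) were left out of the tests. Shares of cells and ratios between cell types were compared by exact permutation of libraries. The alternatives were DESeq2 1.42.0, RLE size factors, no filter, sex as a covariate, a replicate block, other gates, thinning, other windows and leaving out each library. Positions are those of the mm10 annotation, matched for 32158 of 32289 features.

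The text names the 9 members, other features within 2 Mb of *Grem1* that passed, the 10 genes most like *Grem1* and up to 4 genes of a feedback list. The members and lists were chosen with earlier results of these data known. The fit was also run on simulated counts with means and spread taken from these libraries. Of 200 of 16584 genes changed by 1 on the log2 scale in *E1C8*Δ/Δ, 61.5% were recovered, with 11 false calls. Depth differed between libraries (18467465 to 388221859 mesenchymal UMIs), so values of the smallest libraries carry the largest counting error.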

Additional observations from a re-analysis of the deposited data

Results flagged for a closer look

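For 4 genes the change from Wt differed between the mutants in mesenchymal cells, by the edgeR test of *E1C8*Δ/Δ against *E1C5*Δ/Δ, in which the Wt libraries cancel. The log2 difference was -0.75 for *Grem1*, -0.57 for *Arhgap11a*, -0.77 for *Aqr* and -0.40 for *Dph6*, each lower in *E1C8*Δ/Δ. That of *Dph6* passed in 11 of 21 alternatives and not with a replicate block (edgeR adjusted p = 0.0918). The *Arhgap11a* call was also lost with a replicate block (edgeR adjusted p = 0.0684), without any 1 *E1C8*Δ/Δ library and without *E1C5*Δ/Δ replicate 3. The *Grem1* call was lost without *E1C8*Δ/Δ replicate 1 or 2, *E1C5*Δ/Δ replicate 3 or both small libraries (edgeR adjusted p = 0.0657 to 0.10). Its value also moves with the mix of cells: the M3- and M4-like classes held 7.36% and 11.6% of *E1C8*Δ/Δ and 10.3% and 19.8% of *E1C5*Δ/Δ mesenchymal cells. Within these classes the difference was -0.22 ± 0.21 and -0.06 ± 0.13, against -1.19 ± 0.30 in the M1-like and -0.80 ± 0.21 in the P4-like class. The part of the mix was not tested. The log2 ratio of *Grem1* in muscle progenitors to that in mesenchymal cells, with 1 CPM added to each, was 1.63 higher in 5 mutant libraries than in 3 Wt libraries. This difference was chosen after the values had been seen, moves with the lower mesenchymal level, and was 1.28 without both small libraries (exact permutation p = 0.0952). The muscle levels on their own gave no call.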

How the results depend on the processing

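Member changes past the threshold kept their direction in 189 of 189 alternatives and stayed past it in 176. *Grem1* in *E1C5*Δ/Δ against Wt passed with DESeq2 (-0.76, adjusted p = 0.000843), with RLE size factors (-0.76, edgeR 0.0496) and without the filter (-0.75, edgeR 0.0182), and ranged from -0.93 to -0.58 on leaving out single libraries. *Grem1* between the mutants ranged from -0.89 to -0.58 and missed the threshold without both small libraries (-0.69, edgeR adjusted p = 0.0805). With sex as a covariate, 0 members and 0 features within 2 Mb passed in *E1C5*Δ/Δ against Wt. Leaving out single libraries gave 1 to 3 members there and 1 to 3 between the mutants, and for features within 2 Mb 1 to 2 and 1 to 3. DESeq2 gave 4 such features in *E1C5*Δ/Δ, for which the share over all genes is not given here. A window of 5 Mb gave 8 of 46 tested in *E1C8*Δ/Δ against Wt and 8 of 46 between the mutants, 7 lower and 1 higher each time. That is 17.4% in both, against 9.18% and 9.64% of all genes. The replicate numbers did not pair the libraries (correlations of -0.413 to 0.0588, 0 of 9 over 0.1). With a replicate block *Grem1* stood at -1.52 in *E1C8*Δ/Δ, -0.78 in *E1C5*Δ/Δ and -0.74 between the mutants, and 1 feature within 2 Mb passed between them. The cause of these shifts was not tested.

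Signs turned for these member estimates, none of which was called under the setting that turned it. In *E1C8*Δ/Δ against Wt, *Emc7* was at -0.0011 with DESeq2, -0.0013 with RLE, -0.00076 without the filter, -0.0049 without called doublets, -0.0043 with mixed cells kept, -0.019 with a stricter gate, -0.0035 without both small libraries and -0.020 to 0.040 without single libraries. *Aven* was at 0.083 with the sex covariate, *Katnbl1* at -0.030 without both small libraries and -0.0075 to 0.15 without single ones, and *Ryr3* at -0.37 to 0.015. In *E1C5*Δ/Δ, *Arhgap11a* was at -0.0063 without both small libraries and -0.0064 to 0.24 without single ones, and *Ryr3* at -0.36 to 0.027. Between the mutants, *Scg5* ranged from -0.099 to 0.50, *Katnbl1* from -0.056 to 0.034 (0.0063 when thinned) and *Ryr3* from -0.21 to 0.078 (0.033 with mixed cells, 0.13 with the stricter gate, 0.065 without both small libraries).

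The share of cells with a *Grem1* UMI in the mutants minus Wt was -4.22 points in cells thinned to 5000 UMIs (exact permutation p = 0.0476), -3.56 for at least 2 UMIs (exact permutation p = 0.0119) and -6.41 to -3.01 without single libraries. Without thinning, the share in *E1C5*Δ/Δ was 2.06 points above Wt. The number of classes with a changed relative *Grem1* level went from 0 to 7 with 5 CPM added, and was 0 to 8 without single libraries, with 8 without *E1C8*Δ/Δ replicate 1. Its relative level was -0.023 in M1-like and 0.032 in M4-like cells whose best score was at least 0.2 above the next, and -0.38 to 0.049 in the M3-like class without single libraries. Few UMIs limit what can be said of *Ryr3* and *Scg5*.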

Other observations

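In Wt forelimb buds the members on the far side of *Fmn1* had their own patterns over cell types. *Emc7* was highest in myeloid cells and endothelium, at means of 93.1 and 72.8 CPM, against 38.9 CPM in the mesenchyme. *Katnbl1* was highest in endothelium, at 45.9 CPM against 29.3 in the mesenchyme. *Aven* ranged from 24.1 CPM in erythroid cells to 41.9 in muscle progenitors. Means of ectoderm, endothelium, erythroid and myeloid cells rest on 2 Wt libraries, and these differences were not tested. *Fmn1* was also read in Wt myeloid cells, at a mean of 9.82 CPM, and stood at 1.69 CPM in *E1C8*Δ/Δ (3 UMIs) and 7.60 CPM in *E1C5*Δ/Δ, with no call (edgeR adjusted p = 0.981 and 1.00).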
